A study of Mus musculus with 4 samples.

Results

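The nuclear-encoded subunit genes of oxidative phosphorylation were followed in *in vitro* MDSCs, myeloid-derived suppressor cells grown from mouse bone marrow. Members were found by gene symbol alone: *Nduf* a, b, c, s or v and a number for complex I, *Sdha* to *Sdhd* for complex II, *Uqcr* for complex III, *Cox4* to *Cox8* for complex IV and *Atp5* for complex V, with the assembly factors *Ndufaf* and *Sdhaf* left out. The rule found 84 of the 24346 genes listed, of which 37 belonged to complex I, 4 to complex II, 8 to complex III, 18 to complex IV and 17 to complex V. Bone marrow cells of C57BL/6J mice had been cultured for 4 days in 40 ng/ml GM-CSF, either without further cytokine (Control, 2 libraries) or with 5 ng/ml G-CSF (G-CSF, 2 libraries), so every library was exposed to GM-CSF. The study counts the 2 libraries of a group as biological replicates, and its methods describe female mice of 6 to 8 weeks. For the RNA-seq libraries the methods speak of cells and name no sorted subset.

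The respiratory chain sits in the inner mitochondrial membrane. Complex I takes electrons from NADH and complex II takes them from succinate, coenzyme Q and complex III pass them to cytochrome c, and complex IV hands them to oxygen. Complexes I, III and IV pump protons, and complex V, the ATP synthase, uses their return flow to make ATP. Most subunits are encoded in the nucleus and imported, while a small catalytic set is encoded by mitochondrial DNA. The mitochondrially encoded subunits are not analysed here. In myeloid cells the balance of respiration and glycolysis differs between quiescent, activated and suppressive states.

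Values are FPKM, the fragments assigned to a gene per kilobase of transcript, scaled to the mapped reads of the library, so that levels of different genes can be set side by side per length. Each library held an estimated 12400000 to 15580000 mapped reads, and 14674 to 14890 genes stood above 0. The labelled cell type was checked with marker genes. *S100a8* and *S100a9*, abundant granulocyte and monocyte proteins, were among the highest genes in every library, whereas hepatocyte markers summed to at most 0.169 FPKM with *Alb*, *Apoa1*, *Ttr* and *Fgb* at 0 (the labels' extraction text speaks of liver). Several marker lists moved with the groups. The 7 MDSC markers found summed to 69390 and 59800 FPKM in Control and to 47850 and 47720 with G-CSF, and 4 of them were called lower (*Itgam*, *S100a9*, *Csf3r* and *Csf2ra*). *S100a8* and *S100a9* made up most of that sum, at 35613.3 and 31959.1 FPKM in Control replicate 1. *S100a8*, *Ly6c1* and *Ly6c2* were not called. Dendritic cell markers summed to 583.0 and 486.4 against 305.8 and 239.6 (3 of 6 called lower), macrophage markers to 171.5 and 194.0 against 124.1 and 142.2 (2 of 6), and mast cell markers to 89.01 and 87.97 against 56.84 and 61.58 (3 of 4 tested). T cell markers summed to 4.026 and 3.709 against 2.539 and 2.053 (1 of 3 tested called lower), B cell markers to 5.507 and 4.733 against 5.112 and 3.755 (1 of 2) and erythroid markers to at most 1.571 (0 of 1). No marker in these lists was called higher, whereas of all genes tested 10.9% were called higher and 9.27% lower. The part of these shifts in the subunit values was not tested, and in RNA of whole cultures fewer cells of a type and less RNA per cell cannot be told apart. By flow cytometry of such cultures, the study reports that G-CSF left the percentages of MDSCs, dendritic cells and macrophages unaffected. Among CD11b-positive cells it reports a larger proportion of monocytic and a smaller proportion of polymorphonuclear MDSCs with G-CSF. By number, it reports more monocytic MDSCs and an unchanged count of polymorphonuclear MDSCs.

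Of the 84 subunit genes, 79 passed the filter of a mean of at least 0.5 FPKM over the 4 libraries. The 5 that did not are paralogs or isoforms best known from other tissues or conditions. *Ndufa4l2*, *Cox7b2*, *Cox8b* and *Cox8c* were listed at 0 in every library, and *Cox6a2*, the heart and skeletal muscle form of subunit 6a, stood at 0.331 and 0.625 FPKM in Control against 0.356 and 0.568 with G-CSF. The other subunit genes were mostly abundant. Their median level was 131 FPKM, against 12.8 FPKM over all genes tested, and 73 of the 84 reached 30 FPKM. Reads of some members cannot be told from those of near copies or overlapping genes: 16 of the 79 had over 10% of their 75-base windows in another gene as well, with the highest shares in *Atp5g2* (86.9%), *Atp5o* (83.8%), *Atp5l* (63.4%), *Cox7c* (50.4%) and *Atp5h* (40.3%), while 52 had none.

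Levels differed between the complexes. The median tested gene stood at 104 FPKM in complex I, 96.6 in complex II, 242 in complex III, 247 in complex IV and 277 in complex V. The median of complex V was 2.54 and 2.6 times that of complex I in Control and 2.8 and 2.67 times with G-CSF, and the median of complex IV was 2.26 to 2.5 times that of complex I. Complexes I and II stood close together, at a ratio of 0.896 to 0.975. The medians of complexes III, IV and V were all over 2 times that of complex I in every library, and the order of III and IV was not the same in all 4.

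**Figure D1:**
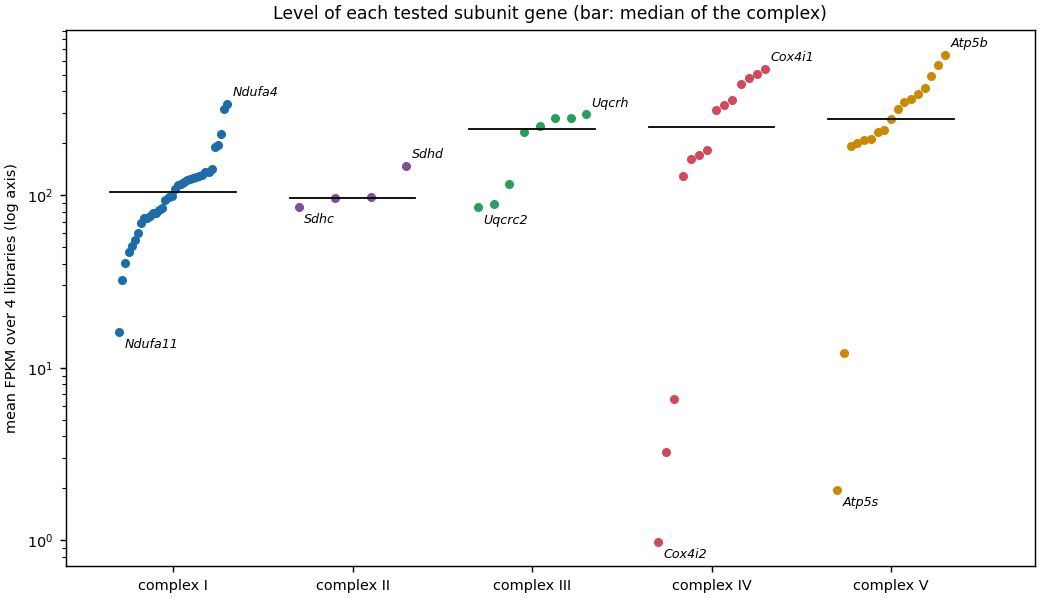
Mean FPKM over the 4 libraries (log axis) of each of the 79 tested subunit genes, one point a gene, grouped by complex, with the lowest and highest gene of each complex named and a bar at the median. Medians are 104, 96.6, 242, 247 and 277 FPKM for complexes I to V, and the few points near or below 10 FPKM are tissue-restricted isoforms of complex IV and the *Atp5s* and *Atp5sl* genes.

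Single genes marked the ends of each range. *Atp5b*, the catalytic beta subunit of the ATP synthase, was the highest subunit gene at 587.4 and 615.1 FPKM in Control against 682.0 and 727.6 with G-CSF. *Atp5k*, which encodes the membrane-bound e subunit, came next at 547.0 and 497.7 against 568.9 and 659.4, and *Cox4i1*, the common form of subunit 4, led complex IV at 516.5 and 517.9 against 554.3 and 578.7. *Cox6b1*, a subunit on the outer face of complex IV, followed closely at 495.0 and 510.8 against 498.1 and 519.5 FPKM. At the low end, *Ndufa11*, a membrane arm subunit of complex I, stood at 17.0 and 15.8 FPKM in Control against 15.4 and 16.5 with G-CSF, and *Ndufs4*, an accessory subunit of the NADH-oxidising module, at 30.9 and 32.0 against 34.3 and 31.8. In complex V the lowest were *Atp5s* at 1.58 and 1.99 against 2.33 and 1.90 FPKM and *Atp5sl* at 11.6 and 12.7 against 12.3 and 12.3. Neither is a core subunit: *Atp5s* is a coupling factor and *Atp5sl* is now known as an assembly protein of complex I.

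Where a subunit has a common and a tissue-restricted form, the common form held nearly all of the FPKM. *Cox4i2*, the lung form of subunit 4, took 0.105 to 0.251% of the pair with *Cox4i1*. *Cox6a2* took 0.0686 to 0.124% of the pair with *Cox6a1*, and *Cox6b2*, the testis form, took 0.336 to 1.08% of the pair with *Cox6b1*. *Cox7a1*, the muscle form of subunit 7a, reached the largest minor share, at 3.46 and 5.1% of the pair with *Cox7a2* in Control against 4.33 and 2.0% with G-CSF. The 3 genes for subunit c of the ATP synthase ring, which encode the same mature protein behind different import sequences, were instead all in use. *Atp5g1* held 25.9 and 26.0% of their FPKM in Control against 26.9 and 26.9% with G-CSF, and *Atp5g3*, the most abundant, held 42.7 and 44.0% against 42.0 and 42.3%. The share of *Atp5g2* overlapped between the groups at 30 to 31.5%.

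Promoter sequence was read beside the levels because nuclear respiratory genes are known for a small set of promoter motifs. RefSeq promoters (GRCm38.p6, 250 bases before to 50 after each start) were found for 69 of the 84 genes, and 5 motifs were searched on both strands. The NRF1 motif GCGCANGCG was held by 20 of the 69 genes (29.0%), against 15.8% of the 8959 tested genes with a promoter and 7.03% of all 27025. The YY1 motif AANATGGCG was held by 11 (15.9%, against 6.32% and 2.76%) and the ERR motif AAGGTCA by 8 (11.6%, against 4.04% and 5.38%). The ETS family motif CCGGAAG was held by 16 (23.2%, against 21.1% and 9.93%) and the E-box CACGTG by 7 (10.1%, against 12.1% and 8.09%). By complex, complex IV held the NRF1 motif in 1 of 13 genes and had no YY1, E-box or ERR match, whereas complex V held the NRF1 motif in 7 of 16, the E-box in 5 of 16 and the YY1 and ERR motifs in 4 of 16 each. Complex IV counts 7 tissue-restricted isoforms among its 18 genes, so some of its 13 promoters belong to such isoforms. All counts are of letter matches in a fixed window, given as shares without a test.

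The 9 stretches below show such matches, each with 30 bases of the gene's own strand read 5′ to 3′ and the match in capitals. The first 3 are the subunit c genes, which share a product and are shown with the match nearest before their start, and the others are NRF1 matches chosen to cover every complex. NRF1 matches on both strands overlap by all but a base at each end in *Atp5g2* and *Atp5k*, which together read GCGCATGCGC.
Atp5g1, E-box, chr11:96075658-96075687, minus strand: agggactccgaaCACGTGggtgggggagct
Atp5g2, NRF1, chr15:102671070-102671099, minus strand: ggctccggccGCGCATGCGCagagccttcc
Atp5g3, ERR, chr2:73911360-73911389, minus strand: ttgttacaaagTGACCTTgagcgtcttccc
Atp5k, NRF1, chr5:108434430-108434459, minus strand: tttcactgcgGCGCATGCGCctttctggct
Atp5c1, NRF1, chr2:10080430-10080459, minus strand: ctgagctcccGCGCACGCGcactgagtccc
Uqcr11, NRF1, chr10:80406807-80406836, minus strand: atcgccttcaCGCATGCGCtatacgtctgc
Sdhd, NRF1, chr9:50603909-50603938, minus strand: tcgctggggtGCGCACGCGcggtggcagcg
Ndufb4, NRF1, chr16:37654371-37654400, minus strand: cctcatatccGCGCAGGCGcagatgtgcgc
Cox6a1, NRF1, chr5:115349056-115349085, minus strand: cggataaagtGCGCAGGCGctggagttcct
The matches begin 44, 42 and 52 bases before the start in *Atp5g1*, *Atp5g2* and *Atp5g3*, and 117 bases before it in *Cox6a1*, the only complex IV gene with an NRF1 match. *Atp5g3* also holds an E-box 238 bases before its start and an NRF1 match 14 bases into the transcript, both outside the stretch shown.

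The comparison of G-CSF with Control asks whether the subunit genes moved with the added cytokine. Changes were small. With G-CSF, 6 of the 79 tested subunit genes were called higher and 0 were called lower at an adjusted p under 0.05 (limma). Over all 11717 genes tested, 20.2% were called in either direction, 10.9% higher and 9.27% lower, so the 7.59% of subunit genes called lay below the share of all genes. Of the 3125 genes at or above 30 FPKM, whose median of 60.6 FPKM is below that of the subunit genes, 1135 were called (36.3%), 673 of them higher (21.5%). No subunit gene passed the study's second threshold of a fold change over 2, which 1.18% of all genes passed. At an unadjusted p under 0.05, 20 subunit genes were higher and 1 was lower.

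In what follows, a value without a unit is a log2 fold change of G-CSF over Control, with its SE after ±. The calls rested on all 4 libraries. With any 1 of them left out (Control replicate 1, Control replicate 2, G-CSF replicate 1 or G-CSF replicate 2), 0 of the subunit genes were called and 18 to 27 of all genes were called higher, while the log2 fold changes of the 6 called genes stayed between 0.143 and 0.42. An empirical Bayes fit without a trend of variance on level also called 0 subunit genes.

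Direction leaned towards G-CSF in most complexes. The log2 fold change was above 0 in 63 of the 79 genes and below 0 in 16. Their median was 0.058, against 0.006 over all genes tested and 0.025 over those at or above 30 FPKM. In 32 subunit genes (40.5%) both G-CSF libraries lay above both Control libraries, and in 5 both lay below, whereas the groups overlapped in 42. Over all genes tested, 34.0% were separated upwards and 32.2% downwards. Of the genes at or above 30 FPKM, 42.4% were separated upwards, slightly above the share of the subunit genes. The log2 fold change stayed above 0 in 42 subunit genes and below 0 in 7 whichever library was left out. For 73 of the 79 genes the 95% interval of the log2 fold change lay within 0.5 of 0 on either side, taken gene by gene and not adjusted over the 79. The 6 others were *Ndufa12*, *Ndufs5*, *Cox4i2*, *Cox6b2*, *Cox7a1* and *Atp5s*.

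**Figure D2:**
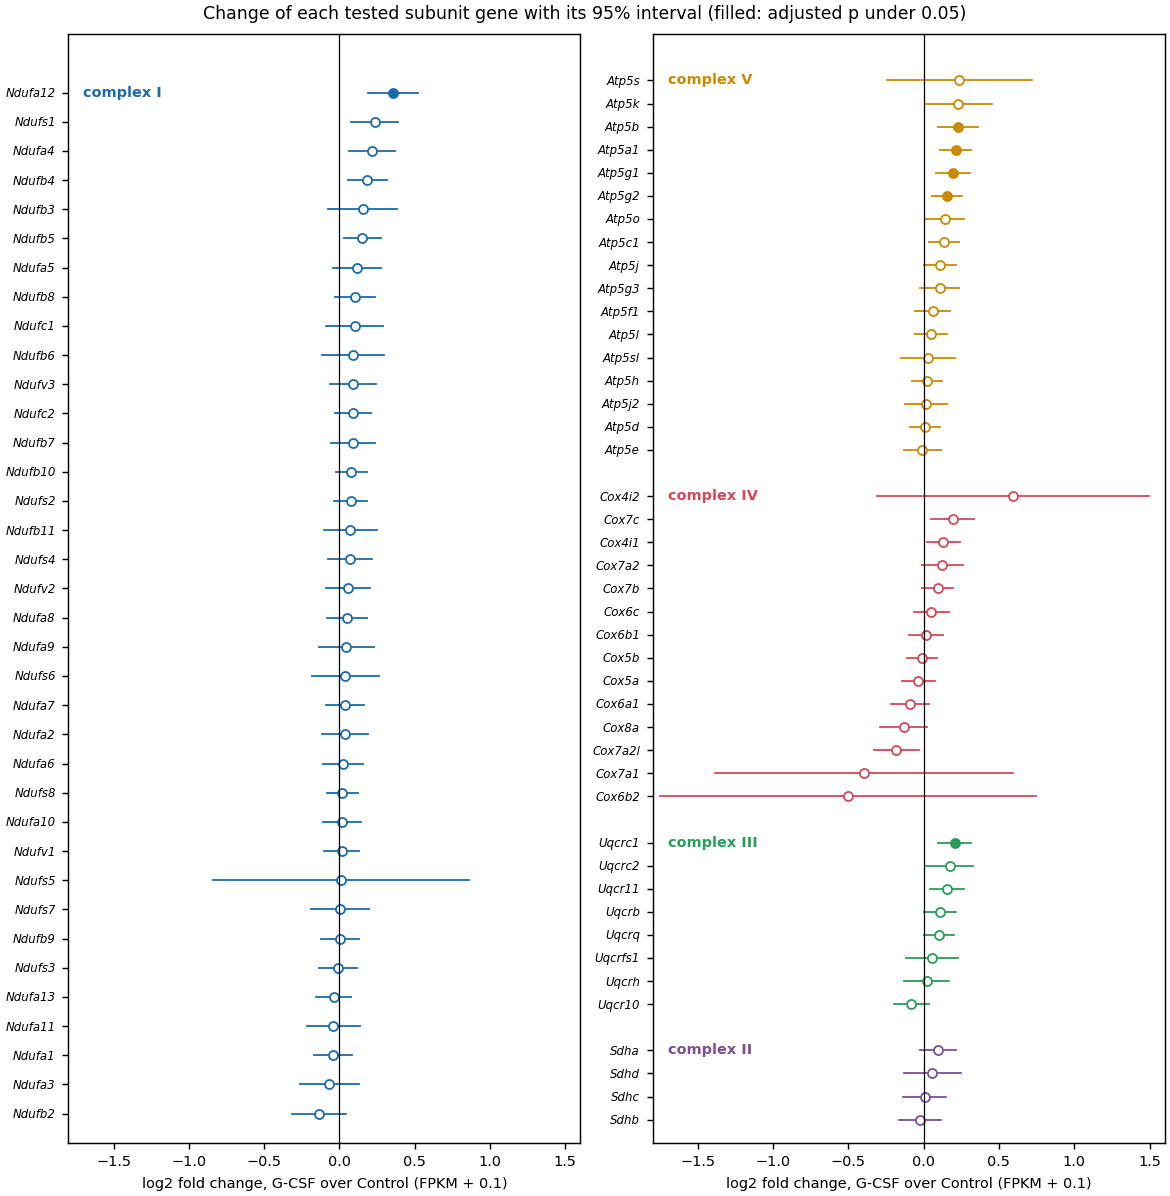
Log2 fold change of G-CSF over Control (x axis, on log2(FPKM + 0.1)) of each tested subunit gene with its 95% interval from limma, sorted within each complex, filled where the adjusted p was under 0.05. The 6 filled points are *Ndufa12*, *Uqcrc1*, *Atp5a1*, *Atp5b*, *Atp5g1* and *Atp5g2*, all to the right of 0, and the wide intervals belong to *Ndufs5*, *Cox4i2*, *Cox6b2* and *Cox7a1*.

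Complex V held 4 of the 6 calls, which is 4 of its 17 genes (23.5%), against 10.9% of all genes tested and 21.5% of those at or above 30 FPKM called higher. Without a filter on low values 3 of these 4 calls were lost, namely *Atp5b* (adjusted p = 0.0716), *Atp5g1* (adjusted p = 0.057) and *Atp5g2* (adjusted p = 0.0661). Both genes of the F1 head, the part that makes ATP, were higher. *Atp5a1*, the alpha subunit (GRCm38 chr18:77773729-77782869, plus strand), stood at 318.0 and 326.1 FPKM in Control against 367.9 and 378.1 with G-CSF (log2 fold change 0.212 ± 0.0410, SE, adjusted p = 0.0285). *Atp5b* (chr10:128083273-128090391, plus strand) moved from the values given above by 0.229 ± 0.0526 (adjusted p = 0.0405). In both genes the lower G-CSF library lay above the higher Control library.

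The subunit c ring gave the other 2 calls of complex V. *Atp5g1* (chr11:96068852-96075670, minus strand) stood at 215.7 and 227.4 FPKM in Control against 255.2 and 252.8 with G-CSF, with a log2 fold change of 0.198 ± 0.0443 (adjusted p = 0.0386). *Atp5g2* (chr15:102662864-102672352, minus strand) stood at 262.4 and 262.0 against 294.7 and 289.5, with 0.156 ± 0.0382 (adjusted p = 0.0465). *Atp5g3*, the third ring gene, stood at 356.2 and 383.9 against 398.6 and 398.0 and was not called, with 0.107 ± 0.0504 (adjusted p = 0.188). All 3 pairs of groups were separated in the same direction, and the difference between the 3 genes was not tested. Reads of *Atp5g2* are uncertain, because 86.9% of the 75-base windows of its transcripts also occur in other genes, and its call was lost under either other scaling of the libraries.

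Outside the head and ring, no complex V gene was called. *Atp5c1*, the gamma subunit that turns inside the head, stood at 194.6 and 189.7 FPKM in Control against 210.8 and 211.9 with G-CSF, with a log2 fold change of 0.137 (adjusted p = 0.0664). The other stalk genes of F1, *Atp5d* and *Atp5e*, gave 0.007 and -0.008. Peripheral stalk genes gave 0.139 (*Atp5o*), 0.109 (*Atp5j*), 0.059 (*Atp5f1*) and 0.022 (*Atp5h*), and the membrane subunits gave 0.231 (*Atp5k*, adjusted p = 0.123), 0.048 (*Atp5l*) and 0.016 (*Atp5j2*). *Atp5s* and *Atp5sl* gave 0.237 and 0.026. In all, 16 of 17 complex V genes lay above 0 and the median was 0.109. Groups were separated in 11 of the 17, all upwards (64.7%), against 34.0% of all genes tested and 42.4% of those at or above 30 FPKM separated upwards.

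Complex III had a median of 0.106, with 1 of 8 genes called (12.5%). Of all genes tested 10.9% were called higher, and of those at or above 30 FPKM 21.5%. *Uqcrc1*, a core protein on the matrix side (chr9:108936633-108949623, plus strand), stood at 108.2 and 106.8 FPKM in Control against 126.5 and 121.6 with G-CSF (log2 fold change 0.206 ± 0.0424, adjusted p = 0.0323). Its partner *Uqcrc2* stood at 77.2 and 82.7 against 86.5 and 93.9 and was not called (0.173 ± 0.0620, adjusted p = 0.108). Groups were separated upwards for both core proteins.

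The smaller subunits of complex III were mixed. *Uqcr11* stood at 262.8 and 264.7 FPKM in Control against 301.9 and 286.6 with G-CSF (0.157, adjusted p = 0.0636), and *Uqcrq* at 244.1 and 238.4 against 258.6 and 259.7 (0.104, adjusted p = 0.12). *Uqcrb* gave 0.108. *Uqcrh*, the acidic hinge protein that docks cytochrome c1, overlapped between the groups at 280.1 and 304.9 against 288.7 and 303.7 (0.019). *Uqcrfs1*, the Rieske iron-sulfur protein, overlapped as well, at 84.6 and 90.2 against 86.1 and 95.9 FPKM (0.057). *Uqcr10* was the 1 gene of the complex below 0, at -0.081, with its groups separated downwards.

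Complex I, the largest complex, had 1 call among 36 tested genes (2.78%). Of all genes tested 10.9% were called higher, and of those at or above 30 FPKM 21.5%. *Ndufa12*, an accessory subunit of the N module that oxidises NADH (chr10:94198720-94221443, plus strand), stood at 118.8 and 110.2 FPKM in Control against 153.1 and 140.0 with G-CSF (log2 fold change 0.355 ± 0.0647, adjusted p = 0.0257). That change was the largest among the called subunit genes. Of its 75-base windows, 22% also occur in another gene. *Ndufs1*, the large iron-sulfur subunit of the same module, stood at 35.7 and 38.9 against 42.9 and 44.9 and missed the threshold (0.234 ± 0.0611, adjusted p = 0.0537).

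The modules of complex I did not stand apart by count. In the N module 8 of 8 genes lay above 0 with a median of 0.063, in the Q module, which reduces coenzyme Q, 7 of 8 with a median of 0.031, and in the membrane arm, which pumps protons, 14 of 19 with a median of 0.071. *Ndufb4*, a membrane arm subunit, stood at 116.8 and 117.2 FPKM in Control against 128.3 and 138.2 with G-CSF (0.186, adjusted p = 0.0587). *Ndufa3*, the most abundant gene of that arm, stood at 346.3 and 299.3 against 302.0 and 312.4 and overlapped (-0.068). *Ndufb2* was the lowest of the complex at -0.136 and the only one with its groups separated downwards. Over the whole complex the groups of 11 of the 36 tested genes were separated upwards and those of 24 overlapped. Of all genes tested 34.0% were separated upwards, and of those at or above 30 FPKM 42.4%.

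*Ndufa4* carries a complex I name but is known as a subunit of complex IV. It was the most abundant gene under a complex I name, at 302.2 and 326.9 FPKM in Control against 351.8 and 377.7 with G-CSF, and gave a log2 fold change of 0.214 ± 0.0605 (adjusted p = 0.065). Counted with complex IV its log2 fold change would have been the highest among the common subunits there.

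Complex II, which is also the succinate dehydrogenase of the tricarboxylic acid cycle, gave no call in 4 genes. That is too few genes to set against the 20.2% of all genes tested called in either direction. *Sdha*, the flavoprotein that oxidises succinate, stood at 92.0 and 96.4 FPKM in Control against 98.8 and 102.3 with G-CSF (0.094, 95% interval -0.025 to 0.213). *Sdhb*, the iron-sulfur subunit, overlapped between the groups at 93.1 and 100.1 against 92.9 and 97.3 (-0.021). The membrane anchors *Sdhc*, at 82.1 and 88.5 against 83.8 and 87.5, and *Sdhd*, at 135.7 and 155.0 against 146.9 and 155.2, overlapped too, with 0.006 and 0.058. The direction of *Sdhc* turned under either other scaling.

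Complex IV had no call in 14 tested genes, against 20.2% of all genes tested called in either direction and 36.3% of those at or above 30 FPKM. Its values were split evenly, 7 above 0 and 7 below, with a median of 0.003. The 10 common isoforms alone gave 6 above and 4 below, with a median of 0.034. Among the common subunits, *Cox7c* stood at 117.7 and 124.9 FPKM in Control against 143.7 and 133.6 with G-CSF (0.192, adjusted p = 0.0715), *Cox4i1* gave 0.131 (adjusted p = 0.0889), and *Cox7a2* stood at 170.9 and 157.2 against 179.4 and 177.9 (0.124, adjusted p = 0.158). The groups of these 3 genes were separated upwards, as were those of *Cox7b* (0.092). In the whole complex the groups of 4 of the 14 tested genes were separated upwards and those of 3 downwards (*Cox6a1*, *Cox8a* and *Cox7a2l*). Among all genes tested, 34.0% were separated upwards and 32.2% downwards. Reads of *Cox7c* are uncertain, as given above for shared windows.

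Other abundant subunits of complex IV lay on the opposite side. *Cox8a*, the smallest common subunit, stood at 469.0 and 449.5 FPKM in Control against 399.0 and 440.4 with G-CSF (-0.131, adjusted p = 0.185), and *Cox6a1* at 482.1 and 503.6 against 451.0 and 475.5 (-0.090). *Cox5a* and *Cox5b* gave -0.035 and -0.011, and *Cox6c* and *Cox6b1* gave 0.052 and 0.017. *Cox7a2l*, a relative of subunit 7a known for joining complexes III and IV into supercomplexes, had the lowest p of the genes below 0. It stood at 196.6 and 190.5 FPKM in Control against 178.9 and 163.0 with G-CSF (-0.181 ± 0.0578, adjusted p = 0.0851).

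The rare isoforms of complex IV could not be resolved at this depth. *Cox4i2* stood at 1.01 and 0.543 FPKM in Control against 1.39 and 0.986 with G-CSF, on 4 to 9 estimated reads a library, and its log2 fold change of 0.594 had an interval from -0.308 to 1.5. *Cox6b2* stood at 5.42 and 2.29 against 3.45 and 1.75 (-0.502, interval -1.75 to 0.744). *Cox7a1* stood at 6.13 and 8.46 against 8.12 and 3.64 (-0.398, interval -1.39 to 0.592). Groups overlapped in all 3. By contrast, 67 of the 79 tested genes had at least 500 estimated reads in every library.

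**Figure D3:**
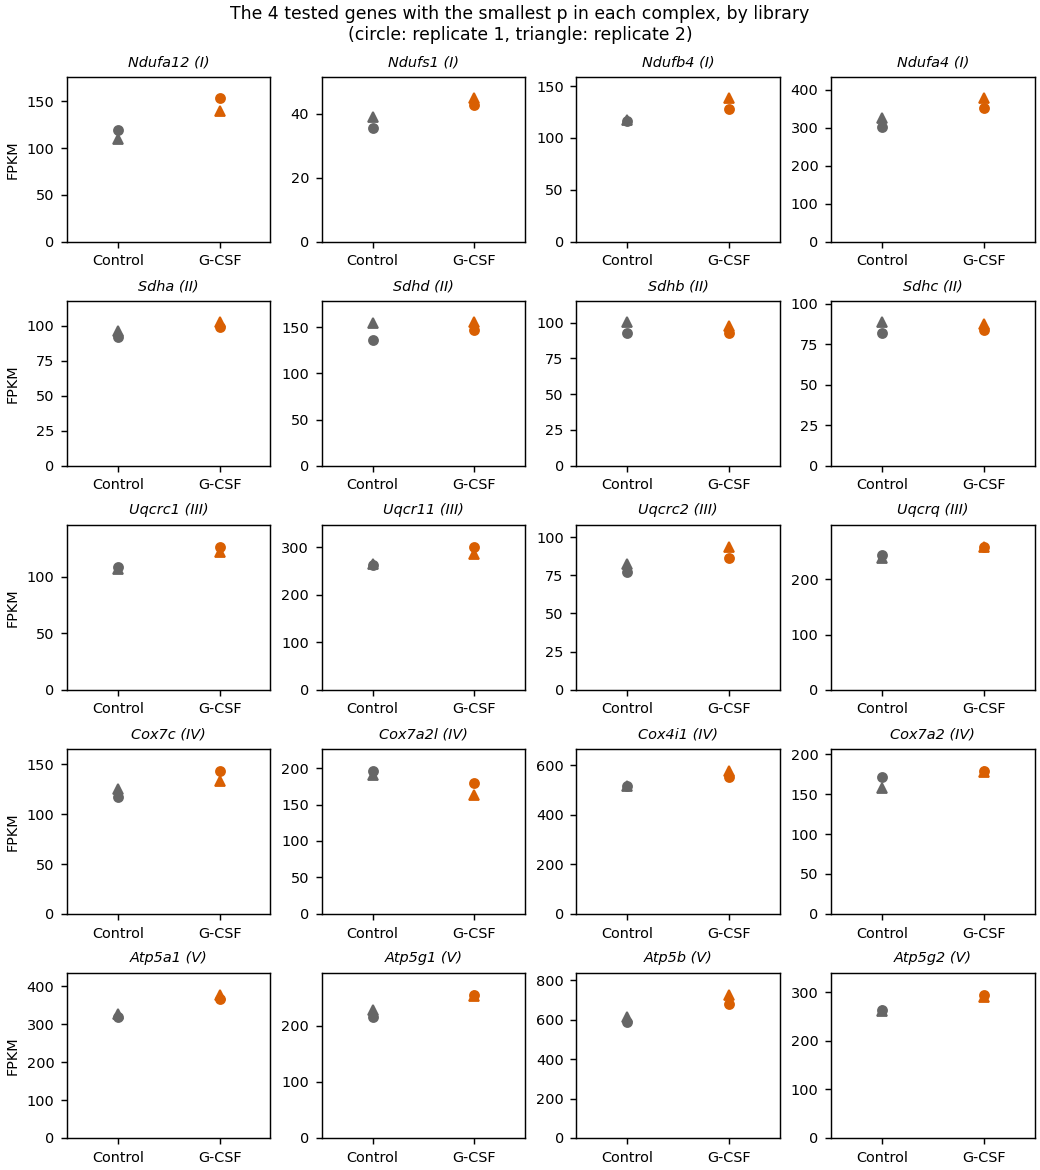
FPKM in each library (y axis from 0) of the 4 tested genes with the smallest p in each complex, one row a complex, with Control in grey, G-CSF in orange, circles for replicate 1 and triangles for replicate 2. The G-CSF points lie above the Control points in all 4 genes shown of complexes I, III and V, while in complex II *Sdhb*, *Sdhc* and *Sdhd* overlap and in complex IV *Cox7a2l* lies lower.

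Sums over each complex put the levels and the small shifts on one scale. Complex I genes summed to 4014.8 and 3997.4 FPKM in Control against 4174.3 and 4254.5 with G-CSF, 5.2% higher on the means. Complex III summed to 1567.9 and 1593.3 against 1664.3 and 1677.7 (5.72% higher) and complex V to 4883.1 and 4907.9 against 5212.6 and 5451.8 (8.92% higher). In these 3 complexes both G-CSF libraries lay above both Control libraries. Complex II, at 402.9 and 440.0 against 422.4 and 442.3 (2.59% higher), and complex IV, at 3621.4 and 3629.7 against 3582.7 and 3676.2 (0.107% higher), overlapped. *Ndufa4*, known as a complex IV subunit, is counted by its name in the sum of complex I. It adds 302.2 and 326.9 FPKM there in Control against 351.8 and 377.7 with G-CSF, so the sums of both complexes depend on where it is placed.

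The median of complex V was 1.06 and 1.04 times that of complex IV in Control and 1.17 and 1.18 times with G-CSF. This ratio rests on few genes. In every library the complex V median was the value of *Atp5g2*, whose reads are uncertain (86.9% shared windows). The complex IV median lay midway between *Cox6c* and *Cox7a2l* in Control and between *Cox6c* and *Cox7a2* with G-CSF, so the ratio does not describe the complexes as wholes. An exact permutation test of 2 against 2 libraries cannot go below p = 0.33, so neither this ratio nor the sums were tested. The subunit genes as a whole took 2.16 and 2.27% of all FPKM in Control against 2.34 and 2.4% with G-CSF. FPKM are shares of a library, and *S100a8* and *S100a9* took less of it with G-CSF (for *S100a8* 35613.3 and 30632.6 FPKM in Control against 25811.8 and 25564.8). The part of that shift in the sums was not tested, and the median log2 fold change of all genes tested was 0.006.

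**Figure D4:**
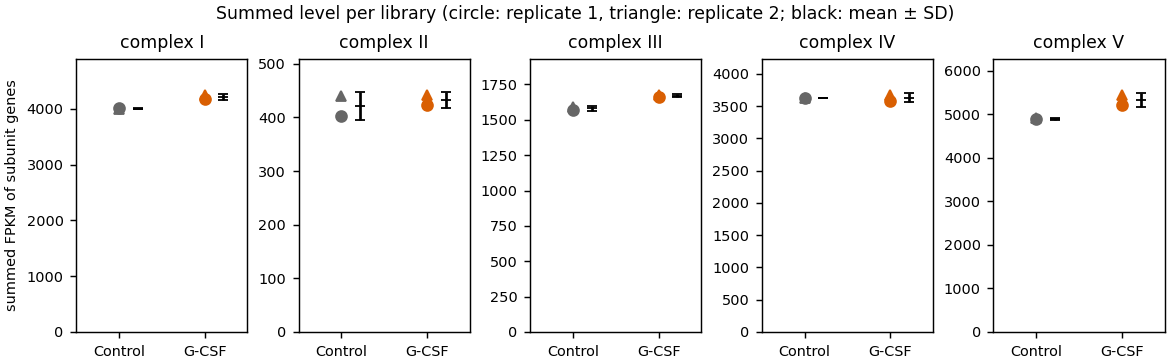
Summed FPKM of the subunit genes of each complex in each library (y axis from 0), circles for replicate 1 and triangles for replicate 2, with the mean ± SD of each group beside them (n = 2). G-CSF points lie above Control points in complexes I, III and V, by 5.2, 5.72 and 8.92% on the means, and overlap with them in complexes II and IV. *Ndufa4* is counted by its name in complex I.

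Genes that serve the same complexes were set beside the subunits. Subunits and a carrier that the symbol rule does not find gave 2 calls among 5 genes, both at the cytochrome c step. *Cycs*, cytochrome c itself, stood at 43.9 and 44.2 FPKM in Control against 56.6 and 56.6 with G-CSF (0.361 ± 0.0418, adjusted p = 0.0139). *Cyc1*, the cytochrome c1 subunit of complex III, stood at 104.2 and 116.6 against 134.7 and 142.6 (0.33 ± 0.0682, adjusted p = 0.0326). Both log2 fold changes were larger than that of any called subunit gene of complexes III and V, a difference that was not tested. The third gene by p, *Usmg5*, a small protein of the ATP synthase, gave 0.122 (adjusted p = 0.147).

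Enzymes of the tricarboxylic acid cycle, which supplies NADH and succinate, were listed together with components of pyruvate dehydrogenase, which feeds it. The list gave 7 calls higher and 0 lower among 18 genes (38.9%, against 10.9% of all genes tested and 21.5% of those at or above 30 FPKM called higher), with a median log2 fold change of 0.179. *Idh2*, the NADP-dependent isocitrate dehydrogenase of mitochondria, stood at 69.9 and 72.8 FPKM in Control against 95.1 and 95.9 with G-CSF (0.420 ± 0.0433, adjusted p = 0.0123). *Suclg2*, a succinyl-CoA ligase subunit, stood at 8.26 and 8.79 against 12.5 and 12.3 (0.534, adjusted p = 0.0146). *Dlat*, a pyruvate dehydrogenase component, stood at 14.7 and 14.9 against 19.4 and 18.1 (0.341, adjusted p = 0.0249). The groups of 14 of the 18 genes were separated, all upwards. Upward separation held for 34.0% of all genes tested and 42.4% of those at or above 30 FPKM.

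Carriers and regulators gave single calls, in 33.3% and 7.69% of the genes tested, against 10.9% of all genes tested called higher. Of 3 tested inner membrane carriers of ADP, ATP and phosphate, *Slc25a5*, the main ADP/ATP exchanger here, was called, at 480.9 and 507.2 FPKM in Control against 581.8 and 598.3 with G-CSF (0.257 ± 0.0468, adjusted p = 0.0257). The phosphate carrier *Slc25a3* gave 0.092 and *Slc25a4* 0.040. Of 13 nuclear regulators, *Myc*, a growth-related transcription factor, was called at 54.7 and 52.3 against 79.1 and 70.1 FPKM (0.476 ± 0.0706, adjusted p = 0.0177). *Gabpa*, an ETS family factor of respiratory gene promoters, and the coactivator *Pprc1* gave 0.179 (adjusted p = 0.0672) and 0.253 (adjusted p = 0.0709). *Esrra*, which encodes a factor that binds the ERR motif and is the next by p, lay on the other side, at 20.8 and 21.2 FPKM in Control against 18.8 and 18.5 with G-CSF (-0.167, adjusted p = 0.0794), and is named after its values were seen.

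Assembly factors were mostly lower in level than the subunits. For complex I, 2 of 17 were called higher (11.8%, against 10.9% of all genes tested), *Foxred1* at 0.360 (adjusted p = 0.0219) and *Ecsit* at 0.343 (adjusted p = 0.0252), and *Ndufaf4* gave 0.245 (adjusted p = 0.138). For complex II, *Sdhaf3* was called among 4, at 3.71 and 3.92 against 5.87 and 5.43 FPKM (0.555, adjusted p = 0.023), while *Sdhaf2* gave -0.179 (adjusted p = 0.0711) and *Sdhaf1* 0.081. For complex III, 0 of 6 were called, and *Uqcc1* gave 0.263 (adjusted p = 0.0555), *Bcs1l* 0.221 and *Lyrm7* 0.968 on a level near 1 FPKM.

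For complex IV, 1 of 21 assembly factors was called (4.76%, against 10.9% of all genes tested called higher). It was *Lrpprc*, which stabilises mitochondrial mRNA, at 15.4 and 16.9 against 19.3 and 19.6 FPKM (0.274, adjusted p = 0.0456). *Coa4* and *Cox19* gave -0.345 and 0.220. For complex V, 0 of 3 were called, and the ATP synthase inhibitor *Atpif1* gave 0.118, *Atpaf2* 0.180 and *Atpaf1* 0.084. Coenzyme Q synthesis had 1 call among 13 genes (7.69%, against the same 10.9%). This was *Coq6*, a hydroxylase of the pathway, at 0.339 (adjusted p = 0.0362), followed by *Coq7* at 0.251 and *Coq2* at 0.290 without a call. No gene of these lists was called lower. As for the subunit genes, every call named from these lists was lost with any 1 library left out and in the fit without a trend, and those of *Cyc1*, *Lrpprc* and *Coq6* were also lost without a filter on low values.

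**Figure D5:**
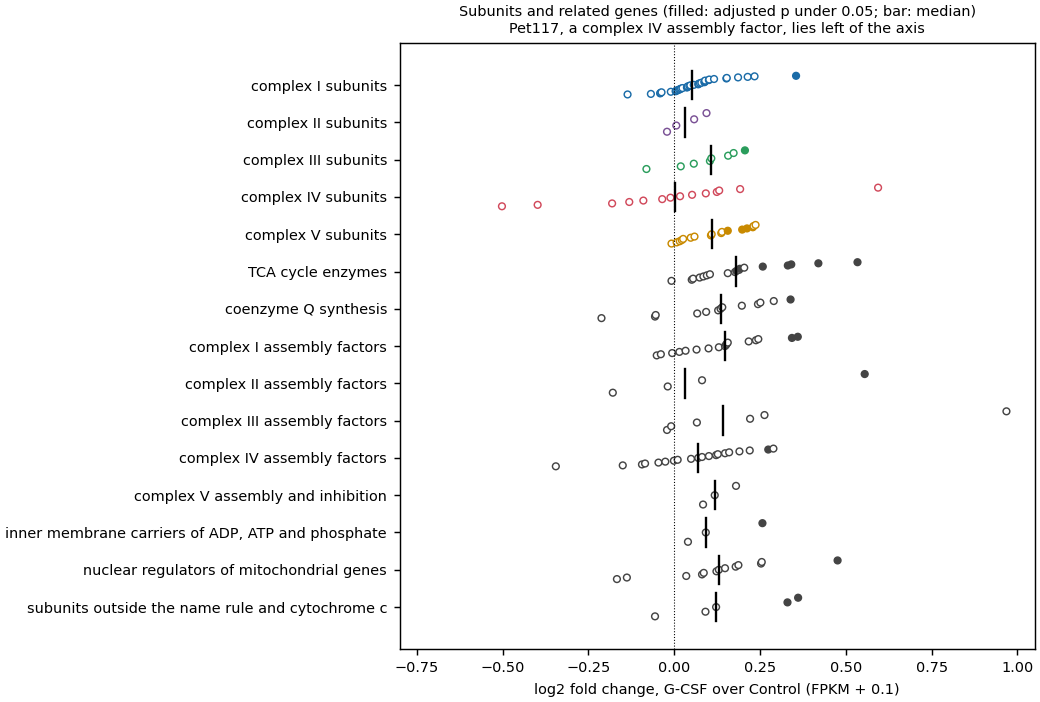
Log2 fold change of G-CSF over Control (x axis, on log2(FPKM + 0.1)) of every tested subunit gene, by complex, and of every tested gene of the related lists, filled where the adjusted p was under 0.05, with a bar at each median. Medians are 0.052, 0.032, 0.106, 0.003 and 0.109 for complexes I to V and 0.179 for tricarboxylic acid cycle enzymes with pyruvate dehydrogenase, and *Pet117*, at -3.28 and not called, lies left of the axis.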

How the data were processed

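The authors deposited 1 table of gene values for each of the 4 libraries (stranded mRNA libraries, 75-base single-end reads). No source names the unit, and the deposited numbers were read as FPKM because low values step with transcript length and because the submitters' processing notes list Cufflinks. These notes name TopHat2 2.0.13, Bowtie2 2.2.3, SAMtools 0.1.19, Cufflinks 2.2.1 and the mm10 build. Values were used as deposited. The members, gene lists, motifs and tests were chosen with earlier results of these data known.

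G-CSF was compared with Control with limma 3.58.1 in R 4.3.3 (lmFit, eBayes with trend, two-sided) on log2(FPKM + 0.1), over the 11717 genes with a mean of at least 0.5 FPKM over all 4 libraries, with Benjamini-Hochberg adjustment over this set. Fold changes are on the log2(FPKM + 0.1) scale, which understates changes of low genes. The p-values rest on the spread between these 4 libraries, with the variance of each gene moderated towards a trend on level over all genes tested. Depth was estimated from the steps between low values (transcript lengths shortened by 210 bases), where 67.65 to 72.6% of values fell within 0.05 of a whole read against 10% by chance. Transcript lengths and shared 75-base windows came from GENCODE M21 of GRCm38 and promoters from RefSeq GRCm38.p6.

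Named with values were, in each complex, the 4 tested genes with the smallest p, the 2 highest and the 2 lowest in level, every tissue-restricted isoform, the 3 subunit c genes, and up to 3 genes of each related list by p. Other subunit genes are given by their fold change, chosen by module. Alternatives were other pseudocounts, filters, scalings, a replicate block, a fit without trend and each library left out. After the data were seen, a robust fit, a fit without genes of 200 bases or fewer, and counts over subunit genes with under 10% shared windows or at least 600 bases were added.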

Additional observations from a re-analysis of the deposited data

How the results depend on the processing

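With each library left out in turn (a group then has 1 library, assumed to vary like the other group), calls over all genes fell to 18 to 27 higher and 14 to 25 lower, 32 to 47 with a fold over 2, and 0 to 0 subunit genes. These fits have fewer samples. Median log2 fold changes then ranged from 0.041 to 0.074 for complex I, -0.043 to 0.094 for II, 0.006 to 0.031 for IV and 0.079 to 0.118 for V, and the log2 ratio of summed FPKM from -0.017 to 0.020 for IV and 0.091 to 0.155 for V. In these fits 30 of the 79 subunit genes did not keep their sign, and the genes named by rule that changed sign ranged from -0.093 to 0.014 (*Ndufa11*), -0.173 to 0.037 (*Ndufa3*), -0.074 to 0.031 (*Sdhb*), -0.047 to 0.060 (*Sdhc*), -0.038 to 0.154 (*Sdhd*), -0.020 to 0.134 (*Uqcrfs1*), -0.042 to 0.080 (*Uqcrh*), -0.013 to 0.047 (*Cox6b1*), -1.107 to 0.104 (*Cox6b2*), -0.966 to 0.171 (*Cox7a1*), -0.038 to 0.091 (*Atp5sl*) and -0.030 to 0.191 (*Sdhaf1*). *Sdhc* was also at -0.002 with upper-quartile and -0.001 with median-ratio scaling, and each scaling called 5 subunit genes, without *Atp5g2*. Without the trend the calls were 18 higher, 9 lower and 27 with a fold over 2, and 0 subunit genes. Genes with a fold over 2 fell from 138 to 66 with a pseudocount of 1 FPKM and to 54 with a mean of at least 5 FPKM. Without a filter 3 subunit genes were called, and *Atp5b*, *Atp5g1* and *Atp5g2* were lost. The causes were not tested. Adding the replicate number as a block called 11 subunit genes higher and 2 lower (*Cox6b2* and *Cox7a2l*). No label ties equal numbers together, and deviations of libraries with the same number correlated at 0.147 over 11717 genes (0.358 over 79 subunit genes), so the block is no main result. A robust fit and a fit without genes of 200 bases or fewer each called 9 higher. Without filtering, the median of complex IV was -0.011. Over subunit genes with under 10% shared windows it was -0.009 and 4 of the 6 calls were left. Over transcripts of at least 600 bases the medians were 0.077 (I), 0.138 (III) and 0.054 (IV). *Cox4i2* had 4 to 9 estimated reads.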

Other observations

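Replicates of a group differed little for most subunit genes, with a median absolute log2 difference of 0.067 in Control and 0.073 with G-CSF. In 4 of the 79 tested genes the difference exceeded 0.5 in a group, and the rest stayed at or below 0.316. These 4 were singled out after their values were seen. *Cox6b2*, *Cox7a1* and *Cox4i2* were low in level, with largest differences of 1.211, 1.136 and 0.782. *Ndufs5*, a membrane arm subunit of complex I, was not low. It stood at 51.1 and 39.99 FPKM in Control against 64.5 and 32.1 with G-CSF, a difference of 1.004 between the G-CSF libraries, and replicate 1 was higher in both groups. Of its 75-base windows, 32.4% also occur in another gene.

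Transcript length moved with the values over the 79 tested subunit genes. The 24 genes under 600 bases had a median of 187 FPKM and the 55 longer ones 125 FPKM. Spearman's rho was -0.28 between level and length and 0.293 between log2 fold change and length, given as a description over genes that share the same 4 libraries.

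*Pet117*, a complex IV assembly factor, stood at 12.6 and 2.12 FPKM in Control against 2.90 and 0 with G-CSF, and the log2 fold change of -3.28 was not called.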
